A study of Mus musculus with 24 samples.

Results

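Activated CD8 T cells were compared with activated CD4 T cells from mice in which Pou2af1 was intact, across all genes. The comparison used 8 of the 24 libraries of the study, 4 of CD8 and 4 of CD4 cells, taken by their labels. It was chosen with earlier results of these data known. Both cell types were sorted from the spleen of C57BL/6 mice 12 weeks old and were cultured for 2 days with antibodies against CD3 and CD28, which stand in for antigen and costimulation. The control mice, called wild type here, carried floxed Pou2af1 on both alleles and no CD4-Cre by their genotype label (CD4.Cre-.Pou2af1fl/fl), although their titles read Pou2af1+/+. The remaining libraries came from heterozygotes (CD4.Cre+.Pou2af1fl/+) and knockouts (CD4.Cre+.Pou2af1fl/fl), 4 per cell type and genotype, treated in the same way. In those mice the Cd4 promoter drives Cre, which acts in T cells of both lineages because they pass through a stage with both coreceptors. The labels do not say that libraries of a group came from separate animals or cultures, so p-values measure the spread between these libraries, part of which may be technical.

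CD4 and CD8 T cells share a precursor in the thymus and part according to the MHC molecule their receptor reads. CD8 cells see peptides on MHC class I and become killers that release perforin and granzymes and make interferon gamma. CD4 cells see peptides on MHC class II and help other cells, through CD40 ligand and through cytokines such as interleukin 2. The factor ThPOK, encoded by Zbtb7b, holds the CD4 fate, and RUNX3 holds the CD8 fate and silences Cd4.

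The libraries followed their labels: Cd8a, Cd8b1 and Prf1 were higher in each CD8 library than in any CD4 library, and Cd4, Zbtb7b and Cd40lg were lower. Gene counts ran from 13883951 to 21760793 per CD4 library and from 12576541 to 15922320 per CD8 library. The leading principal component, 60.9% of the variance, parted the cell types, and the next, 21.2%, parted libraries numbered 1 and 2 from those numbered 3 and 4 in both. Library 3 of each cell type was the only one with Xist (1810 and 1100 CPM, counts scaled to library size, against at most 1.28 elsewhere). It had almost no Ddx3y (0.36 and 0.0628 CPM, against 163 to 244 elsewhere). By these sex-linked transcripts library 3 of each cell type differed in sex from the others. Of 9 B cell markers, 8 could be tested; the list summed to 12.6 to 51.9 CPM in CD4 (highest in library 3) and 9.34 to 19.9 CPM in CD8, with Cd79b higher (3.21 on the log2 scale) and Pax5 (-1.71) and Fcer2a (-3.47) lower in CD8. The 5 markers of NK cells summed to at most 0.812 CPM in any CD4 library and 0.239 CPM in any CD8 library. The macrophage list reached 0.639 and 0.534 CPM, with Fcgr1 and C1qa at 0 in all 8 libraries, and the dendritic list 8.87 and 7.78 CPM, nearly all of it Zbtb46, with Siglech, Cd209a and Clec9a at 0. The gamma delta markers Trdc and Sox13 summed to 0.862 to 1.14 CPM in CD4 and 1.52 to 1.91 CPM in CD8. The natural killer T cell list (Zbtb16, Cd1d1 and Klrb1a) summed to 1.63 to 2.87 and 3.05 to 4.12 CPM. Nearly all of it was Cd1d1 (means 2.16 and 3.47 CPM), so the sum is in effect the level of that gene. Zbtb16 had 0 CPM in the CD4 libraries and 3 counts in CD8, and Klrb1a had means of 0.0291 and 0.0707 CPM. In bulk RNA, fewer cells of a type and less RNA per cell cannot be told apart.

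Of 12432 genes tested, 3714 (29.9%) passed edgeR's quasi-likelihood test at a Benjamini-Hochberg adjusted p under 0.05. Of these, 1790 (14.4% of genes tested) were higher and 1924 (15.5%) were lower in CD8. A 2-fold difference or more was reached by 955 genes (7.68%), 368 higher (2.96%) and 587 lower (4.72%). The CD4 and CD8 libraries did not overlap for 3981 genes (32%). Libraries numbered 1 and 2 alone gave 5426 calls and those numbered 3 and 4 alone gave 2109, each from 2 against 2 libraries, and 2996 genes were called without both libraries numbered 3.

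**Figure D1:**
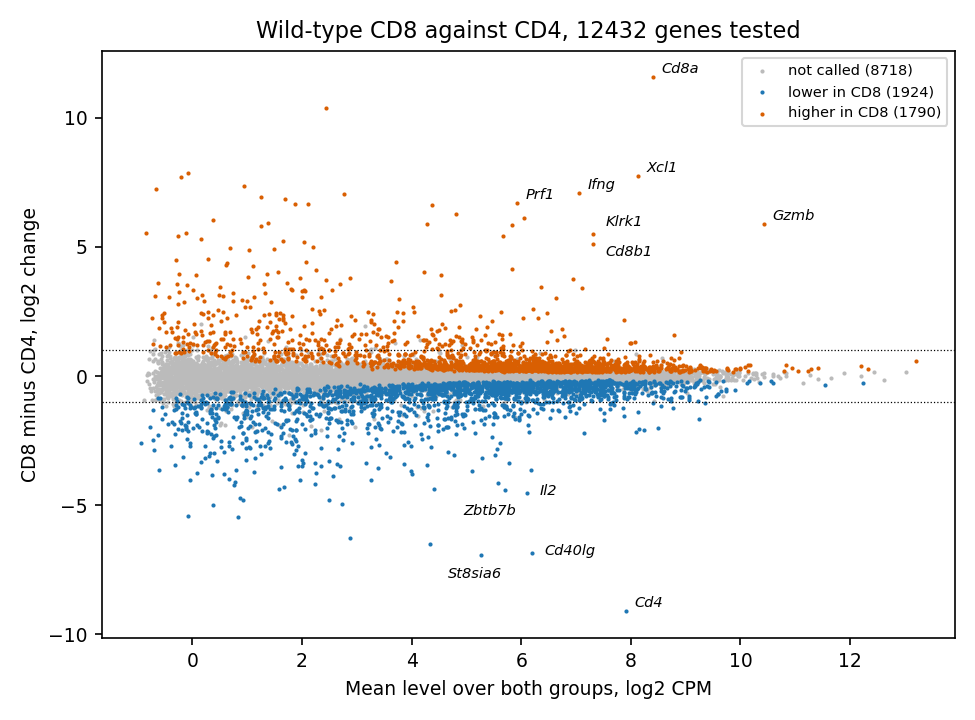
Log2 difference between CD8 and CD4 (y axis) against the mean level in log2 CPM (x axis) for each of the 12432 genes tested in the 8 wild-type libraries. Orange points were higher (1790) and blue points lower (1924) in CD8, grey points were not called, and dotted lines mark a 2-fold difference; the coreceptors Cd8a and Cd4 lie far out on either side. Values of the 4 genes with 0 counts in CD4 depend on the prior count of the fit.

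Of the genes named here by fitted difference, Cd8a was the farthest to the CD8 side and Cd4 the farthest to the CD4 side. Cd8a, the alpha chain of the CD8 coreceptor (ENSMUSG00000053977.13, GRCm38 chromosome 6, 71373427 to 71379173), stood at 0, 0.213, 0.431 and 0.227 CPM in CD4 libraries 1 to 4 and at 686, 708, 672 and 642 CPM in CD8 libraries 1 to 4. Its difference was 11.56 on the log2 scale (SE 0.23, edgeR adjusted p = 5.88e-09). The CD4 libraries held 14 counts of Cd8a between them, near the floor of 3 counts per library (0.136 to 0.239 CPM). Cd8b1, the beta chain (chromosome 6, 71322788 to 71337494), was not as near to absent in CD4: 7.79, 9.80, 8.83 and 8.89 CPM there against 307, 299, 319.8 and 301 CPM in CD8 (log2 difference 5.12, SE 0.08, edgeR adjusted p = 9.32e-10). The spread within either cell type was small beside this gap of 34.7-fold.

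Cd4, the coreceptor for MHC class II (chromosome 6, 124864692 to 124888221), gave 492, 527, 454 and 446 CPM in CD4 cells and 1.07, 1.75, 0.381 and 0.415 CPM in CD8 cells, a log2 difference of -9.10 (SE 0.28, edgeR adjusted p = 1.18e-07). Zbtb7b (chromosome 3, 89377644 to 89394776) was kept at a low level in CD8 cells, 6.48, 3.98, 2.92 and 5.39 CPM against 106, 117, 82.7 and 89.7 CPM in CD4 (log2 difference -4.40, SE 0.23, edgeR adjusted p = 2.71e-06). Cd40lg, the ligand with which helper cells engage CD40 on B cells and dendritic cells (chromosome X, 57212143 to 57224042), fell from 153, 146, 123 and 157 CPM in CD4 to 1.14, 1.75, 1.52 and 0.553 CPM in CD8 (log2 difference -6.86, SE 0.22, edgeR adjusted p = 1.28e-07). No CD8 library came near a CD4 library for these 3 genes. Pou2af1, the coactivator that the study deletes, did not pass: 29.7, 28.8, 46.8 and 49.5 CPM in CD4 cells and 22.1, 23.5, 35.0 and 30.4 CPM in CD8 overlapped (log2 difference -0.48, edgeR adjusted p = 0.125). With the library number as a block it did pass, lower in CD8 (edgeR adjusted p = 0.00516).

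**Figure D2:**
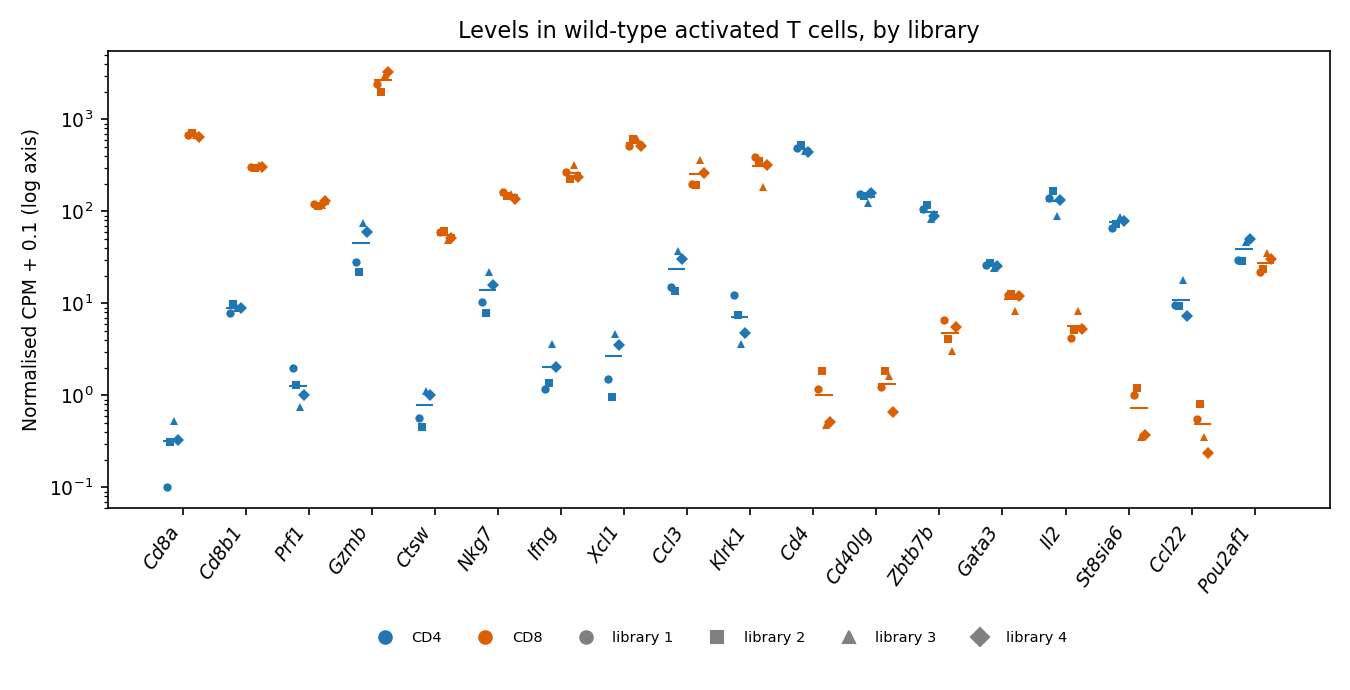
Normalised CPM plus 0.1 on a log axis for 18 named genes (x axis), with each of the 4 CD4 (blue) and 4 CD8 (orange) wild-type libraries as a point shaped by its number and short lines at the means. The groups lie apart for every gene shown except Pou2af1, whose CD4 libraries 1 and 2 lie within the CD8 range.

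Sequence upstream of 6 genes with wide differences is shown. They were not chosen by rank, as Cd4 (-9.10) and Cd40lg (-6.86) differed more than Il2 (-4.53). No upstream sequence was matched for Cd4, Cd40lg, Cd8b1 and Ctsw. Each sequence is the 250 bases before the RefSeq start on GRCm38.p6, read 5′ to 3′ along the gene's own strand. Capitals mark the RUNX core TGTGGT (or ACCACA), the T-box core AGGTGT (or ACACCT), bound by factors such as T-bet and eomesodermin, and the NFAT core GGAAAA (or TTTTCC), searched on both strands; no matches overlap in these windows. Cd8a lies at chr6:71373177-71373426 (plus strand), Prf1 at chr10:61297586-61297835 (plus), Ifng at chr10:118440796-118441045 (plus), Xcl1 at chr1:164935523-164935772 (minus), Samd3 at chr10:26229457-26229706 (plus) and Il2 at chr3:37125955-37126204 (minus).
Cd8a: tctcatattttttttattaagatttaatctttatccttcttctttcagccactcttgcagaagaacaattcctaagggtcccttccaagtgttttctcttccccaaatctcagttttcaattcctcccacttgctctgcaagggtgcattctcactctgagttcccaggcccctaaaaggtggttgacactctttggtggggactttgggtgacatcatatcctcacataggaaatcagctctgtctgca
Prf1: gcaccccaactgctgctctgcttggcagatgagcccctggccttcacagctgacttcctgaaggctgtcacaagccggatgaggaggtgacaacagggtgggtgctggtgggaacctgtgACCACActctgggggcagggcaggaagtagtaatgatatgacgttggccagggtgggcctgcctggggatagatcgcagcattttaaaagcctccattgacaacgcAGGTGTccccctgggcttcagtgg
Ifng: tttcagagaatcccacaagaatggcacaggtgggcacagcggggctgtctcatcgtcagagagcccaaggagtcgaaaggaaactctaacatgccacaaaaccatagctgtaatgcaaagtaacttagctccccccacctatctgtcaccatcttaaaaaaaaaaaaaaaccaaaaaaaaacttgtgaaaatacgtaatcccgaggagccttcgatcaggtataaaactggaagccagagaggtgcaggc
Xcl1: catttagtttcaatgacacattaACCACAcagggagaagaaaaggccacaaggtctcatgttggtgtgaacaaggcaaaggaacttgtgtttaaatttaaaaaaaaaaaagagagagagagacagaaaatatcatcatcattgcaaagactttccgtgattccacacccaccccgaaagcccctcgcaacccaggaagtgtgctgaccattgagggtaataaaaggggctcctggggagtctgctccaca
Samd3: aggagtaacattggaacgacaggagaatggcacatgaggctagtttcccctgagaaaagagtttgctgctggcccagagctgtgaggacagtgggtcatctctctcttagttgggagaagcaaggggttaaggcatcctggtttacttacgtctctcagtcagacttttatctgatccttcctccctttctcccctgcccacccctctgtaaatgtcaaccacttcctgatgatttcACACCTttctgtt
Il2: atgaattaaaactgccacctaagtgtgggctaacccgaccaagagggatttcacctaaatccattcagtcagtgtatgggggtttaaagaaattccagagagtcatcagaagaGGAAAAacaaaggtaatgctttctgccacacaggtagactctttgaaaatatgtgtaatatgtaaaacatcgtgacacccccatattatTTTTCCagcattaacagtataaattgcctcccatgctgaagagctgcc
The Prf1 window held a RUNX core starting 130 bases and a T-box core starting 24 bases before the start. Xcl1 held a RUNX core at 227 bases, Samd3 a T-box core at 13 bases, and Il2 an NFAT core at 137 and another at 48 bases. Over all 32851 RefSeq promoter windows of this length, 14% held the RUNX core, 11.8% the T-box core and 20.4% the NFAT core. RefSeq windows matched 72.67% of the symbols tested, under 80%, so shares over sets of called genes were not computed.

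All 6 genes on the list of CD8 lineage and coreceptor genes were higher in CD8, and all 6 on the CD4 list were lower. This was largely fixed in advance, since the lists hold the coreceptors that name the cell types and the markers Zbtb7b and Cd40lg. They were also chosen with earlier results of these data known. Itgae (39 counts in CD4, 357 in CD8) passed the count filter through CD8. Over all genes tested, 14.4% were higher and 15.5% lower. Crtam, a class I-restricted T cell adhesion receptor, stood at 16.8 ± 5.81 CPM in CD4 cells and 228 ± 17.7 CPM in CD8 (SD, n = 4 each; log2 difference 3.75). Itgae, the CD103 integrin chain, was low in both, 0.600 ± 0.291 against 6.34 ± 2.12 CPM (log2 difference 3.38). The factors differed by less than the coreceptors: Runx3 rose from 54.8, 62.9, 67.4 and 63.1 to 91.8, 84.8, 87.7 and 106 CPM (log2 difference 0.58, SE 0.09, edgeR adjusted p = 0.00149), with no overlap. Eomes, a T-box factor of killer cells, was higher by 1.57 (SE 0.25). On the helper side Gata3, the type 2 and CD4 lineage factor, was lower (log2 difference -1.21, SE 0.14), with CD8 library 3 below the other CD8 libraries (8.12 CPM against 11.8 to 12.6).

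Among 18 other transcription factors of T cell identity, 6 were higher and 6 lower in CD8 (33.3% each). Over all genes tested, 14.4% were higher and 15.5% lower. Runx1 (chromosome 16, 92601466 to 92826149), the RUNX factor that represses Cd4 in early thymocytes, moved against Runx3: 48.7, 46.6, 50.1 and 52.4 CPM in CD4 cells and 11.7, 12.7, 12.4 and 12.6 CPM in CD8 (means 49.4 and 12.4 CPM, SE of the log2 difference 0.07, edgeR adjusted p = 3.06e-07). The CD8 libraries lay close together, and all were far below every CD4 library. Ikzf3, which encodes the Ikaros family factor Aiolos, was higher in CD8, 27.6 ± 11.9 against 151 ± 9.56 CPM (log2 difference 2.45). Bach2, a repressor of effector genes, and Id3, an inhibitor of E proteins, were lower, with log2 differences of -0.76 and -1.11. Bcl11b (-0.53), Lef1 (-0.40) and Ikzf1 (-0.22) were also lower, while Tcf7 (0.34), Ets1 (0.46) and Myb (0.76) were higher on the log2 scale.

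The granule genes of killer cells split into a few that were almost off in CD4 and many that differed little. Of 23 listed genes, 14 had enough counts to test. In CD8 7 were higher (50%, against 14.4% of all genes tested) and 3 lower (21.4%, against 15.5%). The filter keeps a gene that is high in either cell type, so a gene kept through 1 of them was bound to differ and these counts describe the list only. Prf1, the pore former (chromosome 10, 61297833 to 61304680), stood at 1.90, 1.21, 0.646 and 0.907 CPM in CD4 cells and 119.6, 114, 117 and 129 CPM in CD8 (log2 difference 6.70, SE 0.21, edgeR adjusted p = 1.18e-07). Gzmb, the serine protease granzyme B (chromosome 14, 56258838 to 56262260), reached 2400.2, 2012, 3082 and 3319 CPM in CD8 and was also present in CD4, at 28.2, 21.7, 74.0 and 59.2 CPM (log2 difference 5.88, SE 0.42, edgeR adjusted p = 2.28e-05). Libraries 3 and 4 were above 1 and 2 in both cell types, and the cell types stayed apart. Per kilobase of exon, CD8 cells held 1882 CPM of Gzmb and 46.4 CPM of Prf1.

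Ctsw, the protease cathepsin W of cytotoxic lymphocytes, gave 0.474, 0.355, 1.01 and 0.907 CPM in CD4 cells and 59.8, 61.1, 49.4 and 51.8 CPM in CD8 (log2 difference 6.29). Nkg7, a granule membrane protein needed for killing, gave 10.3, 7.74, 21.8 and 15.7 and 161, 148, 156 and 136 CPM (log2 difference 3.43). Rab27a, which moves granules to the membrane, Ctsc, the protease that activates granzymes, and the granule membrane gene Lamp1 were higher in CD8 by 0.45, 0.37 and 0.27. Srgn, the core proteoglycan of the granule, was lower in CD8 (-0.63), as were the fusion factors Stx11 (-0.60) and Unc13d (-0.25). The other granzyme genes on the list, Gzma, Gzmc, Gzmd, Gzme, Gzmf, Gzmg, Gzmk, Gzmm and Gzmn, did not reach the count filter in these 8 libraries.

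Interferon gamma and interleukin 2 went opposite ways. Ifng (chromosome 10, 118441046 to 118445892) stood at 1.08, 1.28, 3.52 and 1.95 CPM in CD4 cells and 266, 227, 320.0 and 239.7 CPM in CD8, a log2 difference of 7.07 (SE 0.28, edgeR adjusted p = 6.38e-07). Il2, the T cell growth factor (chromosome 3, 37120523 to 37125959), stood at 139, 167, 88.2 and 132 CPM in CD4 cells and 4.12, 5.02, 8.25 and 5.12 CPM in CD8, a log2 difference of -4.53 (SE 0.26, edgeR adjusted p = 4.51e-06). No library overlapped for either gene. Of 24 cytokine genes 12 could be tested, and Ifng was the only one higher in CD8. Osm (-1.16), Csf1 (-1.29), Lif (-1.44) and Il3 (-2.74) joined Il2 as lower (41.7% of those tested, against 15.5% of all genes tested). For Il3 the CD4 libraries 1 to 4 held 59.98, 63.3, 6.25 and 11.8 CPM, and library 3 lay within the range of the CD8 libraries (2.47 to 10.1 CPM). Tnf (-0.55), Csf2 (-0.71), Lta (-0.22) and Tgfb1 (-0.01) did not pass. With the library number as a block 2 cytokine genes were higher and 7 lower; Tnf (edgeR adjusted p = 0.00586) and Lta (edgeR adjusted p = 0.0258) passed as lower.

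The receptors around interferon gamma were unequal. Of 13 type 1 regulators tested, 5 were higher and 5 lower in CD8 (38.5% each, against 14.4% and 15.5% of all genes tested). Ifngr1, the ligand-binding chain of the interferon gamma receptor, was higher (56.0 ± 5.66 CPM in CD4, 164 ± 18.6 CPM in CD8, SD, n = 4 each; log2 difference 1.55, edgeR adjusted p = 1.09e-05), and Ifngr2, the signalling chain, was lower (29.6 ± 6.17 against 6.28 ± 1.44 CPM; log2 difference -2.23, edgeR adjusted p = 6.58e-05). The chains of the interleukin 18 receptor were both higher, Il18r1 by 2.46 and Il18rap by 2.31. Of the interleukin 12 receptor, Il12rb2 was higher (0.60) and Il12rb1 lower (-1.04). Tbx21, which encodes T-bet, did not pass: 55.9 to 96.8 CPM in CD4 cells and 59.8 to 70.3 CPM in CD8 overlapped (log2 difference -0.21, edgeR adjusted p = 0.329).

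Chemokine ligand genes held some of the widest differences. Of 9 tested, 5 were higher (55.6%, against 14.4% of all genes tested) and 2 lower in CD8 (22.2%, against 15.5%). The tally is partly fixed by the filter, since Ccl9 (26 counts in CD4, 2240 in CD8) entered through CD8. Ccl22 (677 and 21) entered through CD4. Xcl1, which attracts dendritic cells bearing XCR1 (chromosome 1, 164931644 to 164935527), stood at 1.42, 0.852, 4.53 and 3.45 CPM in CD4 cells and 512, 610.1, 610.3 and 509.9 CPM in CD8 (log2 difference 7.74, SE 0.35, edgeR adjusted p = 1.62e-06). Ccl3 and Ccl4, inflammatory chemokines, were present in CD4 and higher in CD8: 23.8 ± 11.5 against 253 ± 76.5 CPM and 21.2 ± 9.10 against 127.6 ± 34.8 CPM (SD, n = 4 each). Their log2 differences were 3.41 and 2.58. Ccl9 stood at 0.432 ± 0.193 CPM in CD4 (SD, n = 4) and varied among the CD8 libraries, at 54.3, 53.3, 38.8 and 17.01 CPM. Ccl22, a ligand of CCR4, ran the other way, 9.48, 9.23, 17.8 and 7.21 CPM in CD4 cells and 0.458, 0.717, 0.254 and 0.138 CPM in CD8 (log2 difference -4.81, edgeR adjusted p = 8.83e-05). Ccl5 was also lower in CD8 (-1.10), at 6.77 and 3.18 CPM.

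Of 12 chemokine and homing receptor genes tested, 9 (75%) were higher in CD8 and Cd44 alone was lower (-0.29). Over all genes tested, 14.4% were higher. The tally is partly fixed by the filter, since Cxcr3 (23 counts in CD4, 455 in CD8) and Ccr2 (32 and 346) entered through CD8. Cxcr3, the receptor for the interferon-induced chemokines, stood at 0.271, 0.781, 0.359 and 0.136 CPM in CD4 cells and 7.32, 7.32, 11.2 and 6.29 CPM in CD8 (log2 difference 4.43). Ccr9, a gut homing receptor, had 1 count in the CD4 libraries together and 220 in CD8, a ratio of 255.1 with a 95% counting interval of 45.31 to 10120.0. Cxcr6 (2.57), Ccr2 (3.62) and Selplg (1.08), the last a selectin ligand, were higher as well. Ccr7, a receptor for lymph node entry (421 to 852 CPM in CD4, 301 to 497 CPM in CD8), did not pass; with the block it did, as lower (edgeR adjusted p = 0.00123), giving 2 lower genes on the list.

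Killer lectin-like receptor genes, known from NK cells and effector CD8 cells, were higher in CD8 for 8 of the 9 tested (88.9%). Over all genes tested the share was 14.4%. Klrb1f did not pass (-0.28), and 10 listed genes did not reach the count filter. Several were kept through their CD8 counts alone (Klre1 had 8 counts in CD4 and 222 in CD8, Klrc2 11 and 300), so the tally is partly fixed by the filter. Klrk1, which encodes the activating receptor NKG2D (chromosome 6, 129610323 to 129623864), stood at 12.4, 7.45, 3.52 and 4.63 CPM in CD4 cells and 386, 355, 184 and 321 CPM in CD8 (log2 difference 5.49, SE 0.40, edgeR adjusted p = 2.33e-05). Klrd1, the CD94 partner chain, stood at 4.87, 3.34, 0.718 and 0.726 and 134, 124, 48.5 and 92.9 CPM (log2 difference 5.42). In CD8 cells both were lowest in library 3. The inhibitory partner Klrc1 was higher by 4.02 and the activating Klrc2 by 4.90. Klrc and Klra genes have close copies whose shared reads were not counted, so their levels are uncertain. The 5 NK cell markers summed to at most 0.239 CPM in these CD8 libraries.

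Of 17 TNF family receptor and ligand genes tested, 6 (35.3%) were lower in CD8 and 4 (23.5%) higher. Over all genes tested the shares were 15.5% and 14.4%. With the library number as a block 9 were lower and 5 higher. Tnfrsf4, the costimulatory receptor OX40, stood at 338, 390.3, 332 and 349.8 CPM in CD4 cells and 107, 97.4, 121 and 152 CPM in CD8 (log2 difference -1.56, SE 0.13, edgeR adjusted p = 5.10e-05). Tnfsf11, the cytokine RANKL, was lower (-2.18 on the log2 scale), as was Tnfrsf25, the receptor DR3 (-3.46); CD4 libraries 1 and 2 were above 3 and 4 for both. Cd27 (0.88) and Tnfrsf9, the receptor 4-1BB (0.68), were higher in CD8. Among 14 CD28 family and inhibitory receptor genes, 4 were higher and 4 lower (28.6% each), and 5 were lower with the block. Cd160 went from 2.85 ± 1.00 to 43.8 ± 2.61 CPM (SD, n = 4 each, log2 difference 3.91). Cd274, the ligand PD-L1, went from 164 ± 9.18 to 71.6 ± 4.84 CPM (log2 difference -1.19). Cd28 itself was lower (-0.23).

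Of 14 type 2 and type 17 regulators, 7 were lower in CD8 (15.5% of all genes tested were) and Il1rl1, the interleukin 33 receptor, was higher (2.60). With the library number as a block 10 of these regulators were lower. Il6ra, the interleukin 6 receptor alpha chain (chromosome 3, 89864059 to 89913196), stood at 87.1, 79.7, 84.3 and 81.0 CPM in CD4 cells and 10.8, 10.5, 11.9 and 13.1 CPM in CD8 (log2 difference -2.84, SE 0.09, edgeR adjusted p = 1.18e-07). Ccr8, a chemokine receptor, was lower (-3.68). Ccr6 gave 165, 172, 20.9 and 41.0 CPM in CD4 cells and 16.7, 12.3, 5.07 and 4.56 CPM in CD8 (log2 difference -3.38); its CD4 libraries 1 and 2 were far above 3 and 4. Of 9 follicular helper genes, Btla (-2.01), Cd200 (-2.10) and Slamf6 (-0.83) were lower, and 6 were lower with the library number as a block. Cxcr5 was higher (1.54), with CD4 library 3, which also had the highest B cell marker sum, at 7.69 CPM against 2.37 to 2.86 in the other CD4 libraries; the part of B cell RNA in this was not tested.

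Of 11 regulatory T cell genes, 4 were lower in CD8 and Ikzf2, the factor Helios, was higher (17.5 ± 4.93 CPM in CD4, 65.4 ± 7.48 CPM in CD8, SD, n = 4 each; log2 difference 1.90). The share lower was 36.4%, against 15.5% of all genes tested, and 6 were lower with the block. Foxp3 itself was low and overlapped, 0.880, 1.35, 5.39 and 2.63 CPM in CD4 cells and 0.381, 0.478, 2.92 and 0.830 CPM in CD8 (log2 difference -1.10, edgeR adjusted p = 0.269, or 0.00532 with the block). Gpr83 and, outside the list, Tgm2 were far higher in CD4 libraries 3 and 4 than in 1 and 2. Gpr83, a receptor of regulatory cells, gave 2.23, 3.19, 25.6 and 16.6 CPM in CD4 cells and 0.534, 0.398, 1.65 and 1.59 CPM in CD8 (log2 difference -3.47). Tgm2, a transglutaminase, gave 1.42, 1.56, 30.5 and 18.1 and 0.381, 0, 0.317 and 0.899 CPM (log2 difference -4.96, SE 1.19, edgeR adjusted p = 0.0128), and its difference was -2.88 in libraries 1 and 2 and -5.31 in libraries 3 and 4. Without both libraries numbered 3, Tgm2 no longer passed (edgeR adjusted p = 0.0587).

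Of 30 genes of the T cell receptor complex and its proximal signalling, 10 were lower and 4 higher in CD8 (12 lower and 7 higher with the block), 2 of them by 2-fold or more. Without the block these were 33.3% and 13.3%, against 15.5% and 14.4% of all genes tested. The median difference was -0.083 against -0.014 over all genes tested. Cd3e (0.15), Cd3d (0.19) and Lck (0.12) did not pass. Sla2, an adaptor that dampens receptor signals, was higher (10.1 ± 0.263 CPM in CD4, 35.0 ± 3.30 CPM in CD8, SD, n = 4 each; log2 difference 1.79), as was the Tec kinase gene Txk (1.33). Cd5, an inhibitory receptor set by signal strength, was lower, 536 ± 39.97 against 286 ± 31.7 CPM (log2 difference -0.91), and so was the kinase gene Zap70 (-0.63). In the interleukin 2 receptor and STAT5 list of 17, 3 were higher (17.6%) and 5 lower (29.4%), or 5 and 6 with the block. Il7r was higher by 2.26, and Il15ra (-1.19) and the STAT5 target Cish (-0.93) were lower. Il2ra (-0.16), the alpha chain, did not pass, nor did Il2rb, the beta chain (0.70), which was higher with the block (edgeR adjusted p = 0.0119).

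Among 27 effector and memory fate factors, 7 were lower and 6 higher (25.9% and 22.2%, against 15.5% and 14.4% of all genes tested). Nr4a1, the early gene Nur77, stood at 253, 296, 249 and 273 CPM in CD4 cells and 138, 118, 131 and 139 CPM in CD8 (log2 difference -1.03, SE 0.08, edgeR adjusted p = 2.69e-05). Nr4a3 (-0.76), Junb (-0.76), Fos (-1.84), Fosl2 (-1.22) and Egr1 (-0.62) were also lower, and Jund (0.43) was higher. Egr3 (-0.26) and Jun (-0.16) did not pass, and Egr2 (-0.43) passed with the block alone (edgeR adjusted p = 0.0289). Batf3 (3.31) and Prdm1, the factor Blimp-1 (1.69), were higher from low levels (0.671 and 1.00 CPM in CD4).

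Type I interferon response genes were lower in CD8: 18 of 28 passed as lower and 0 as higher, with a median log2 difference of -1.029 against -0.014 over all genes tested. The share lower was 64.3%, against 15.5% of all genes tested, and 23 were lower with the library number as a block. The summed level of the 28 genes ran from 3040 to 3920 CPM in CD4 and from 1210 to 2320 CPM in CD8, without overlap. Ifih1, the RNA sensor MDA5, stood at 195, 169, 264 and 299.9 CPM in CD4 cells and 46.8, 36.9, 33.0 and 86.1 CPM in CD8 (log2 difference -2.19, SE 0.31, edgeR adjusted p = 9.14e-04). Ifi44 (-3.43), the nuclease gene Isg20 (-2.35), Isg15 (-1.86) and Stat2 (-1.09) were lower as well. CD8 library 3 was the lowest for Ifih1 and CD8 library 4 the highest of the CD8 libraries. Without both libraries numbered 3, 16 were lower; libraries numbered 1 and 2 alone gave 22 lower and 1 higher, and libraries numbered 3 and 4 alone gave 8 lower. Ifitm3, a membrane protein that blocks virus entry, was 145, 136, 21.5 and 59.9 CPM in CD4 cells and 7.32, 5.81, 3.24 and 4.43 CPM in CD8 (log2 difference -4.13).

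Of 17 MHC class I and peptide loading genes, 4 were lower in CD8 (23.5%, against 15.5% of all genes tested). H2-Q6 was higher (0.42), a gene with close copies whose level is uncertain. It was called in neither heterozygotes (log2 difference -0.21) nor knockouts (0.40). H2-T23 (-0.62), Psmb9 (-0.44), Tap1 (-0.43) and Tap2 (-0.26) were the lower ones. All 4 were called lower in heterozygotes and 1 in knockouts. With the library number as a block 6 were lower. B2m (-0.09), H2-K1 (-0.15) and H2-D1 (-0.08) did not pass.

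Cell cycle genes were slightly higher in CD8, 17 of 30 higher and 2 lower, with a median log2 difference of 0.266. Their shares were 56.7% and 6.67%, against 14.4% and 15.5% of all genes tested. None of these genes reached 2-fold. Ccne1 (cyclin E1) stood at 66.1, 63.4, 64.3 and 70.4 CPM in CD4 cells and 88.9, 91.0, 101 and 87.4 CPM in CD8 (log2 difference 0.48, SE 0.07, edgeR adjusted p = 8.02e-04), and Ccna2 (0.34), Mcm2 (0.43) and Plk1 (0.36) were higher too. The inhibitors Cdkn1a (-0.37) and Cdkn1b (-0.34) were the lower ones. Mki67, the Ki-67 gene, did not pass: 1639.8 to 1859 CPM in CD4 cells and 1856 to 1999.8 CPM in CD8 overlapped. Libraries numbered 1 and 2 alone gave 24 higher and 2 lower, and libraries numbered 3 and 4 alone gave 5 higher.

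Lipid synthesis depended on which libraries were read. Over all 8 libraries 2 of 24 cholesterol and fatty acid synthesis genes were higher in CD8, Fasn (0.64) and Acaca (0.48), the enzymes that build fatty acids. That is 8.33%, against 14.4% of all genes tested. The log2 change of Acaca did not pass without CD4 library 1 or 2 or CD8 library 2, 3 or 4, each left out alone (edgeR adjusted p = 0.0543 to 0.0756). In libraries numbered 1 and 2 alone 22 were higher and 0 lower, and in libraries numbered 3 and 4 alone 2 were higher and 9 lower. Hmgcs1, an enzyme of cholesterol synthesis, shows this: 243, 209, 558 and 505 CPM in CD4 libraries 1 to 4 and 371, 443, 370.3 and 432 CPM in CD8 libraries 1 to 4. CD4 libraries 1 and 2 lay below every CD8 library and CD4 libraries 3 and 4 above every one, while the CD8 libraries lay between. The difference between these sets of libraries was not tested.

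In the glycolysis and hypoxia list 2 of 21 genes were lower, Hif1a (-0.80) and Vegfa (-1.22), and 0 were higher. With the library number as a block 5 were lower. The share lower without the block was 9.52%, against 15.5% of all genes tested. The log2 change of Vegfa did not pass without CD8 library 1 (edgeR adjusted p = 0.0560) or 3 (edgeR adjusted p = 0.0622). The list summed to 6500, 6250, 11800 and 11300 CPM in CD4 libraries 1 to 4 and 6250, 5970, 8030 and 10600 CPM in CD8 libraries 1 to 4. Libraries 3 and 4 were above 1 and 2 in both cell types. Amino acid transporter genes were lower in CD8 for 6 of 13 and higher for 0: Slc1a4 (-1.25), Slc7a11 (-1.73), Slc7a1 (-0.56), Slc38a2 (-0.47), Slc43a3 (-0.43) and Slc1a5 (-0.38). The share lower was 46.2%, against 15.5% of all genes tested. Libraries numbered 1 and 2 alone gave 10 lower and 1 higher, and libraries numbered 3 and 4 alone gave 1 lower.

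Enzymes that place sialic acid differed by gene. St8sia6, a member of the ST8SIA family (chromosome 2, 13651021 to 13794064), stood at 65.5, 73.9, 87.6 and 78.8 CPM in CD4 cells and 0.915, 1.11, 0.254 and 0.277 CPM in CD8 (log2 difference -6.94, SE 0.30, edgeR adjusted p = 1.03e-06). St3gal2 (-2.81), St6gal1 (-1.89), St3gal1 (-1.54) and St6galnac6 (-0.86) were lower, and St3gal6 (1.81) and St3gal4 (0.57) were higher, among 15 tested (5 higher with the block). Over this list 33.3% were lower and 13.3% higher without the block, against 15.5% and 14.4% of all genes tested. Of 12 integrin genes, Itgb3 (-1.50), Itgb8 (-2.73) and Itgal (-0.28) were lower, and Itga4 (0.50) and Itgb2 (0.20) higher. These were 25% and 16.7% of the integrin genes tested, beside 15.5% and 14.4% of all genes. The log2 change of Itgal did not pass without CD8 library 2 (edgeR adjusted p = 0.0546). Itgal was called in neither heterozygotes (log2 difference -0.05) nor knockouts (-0.08). With the block 5 integrin genes were lower and Itgb2 did not pass (edgeR adjusted p = 0.052).

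**Figure D3:**
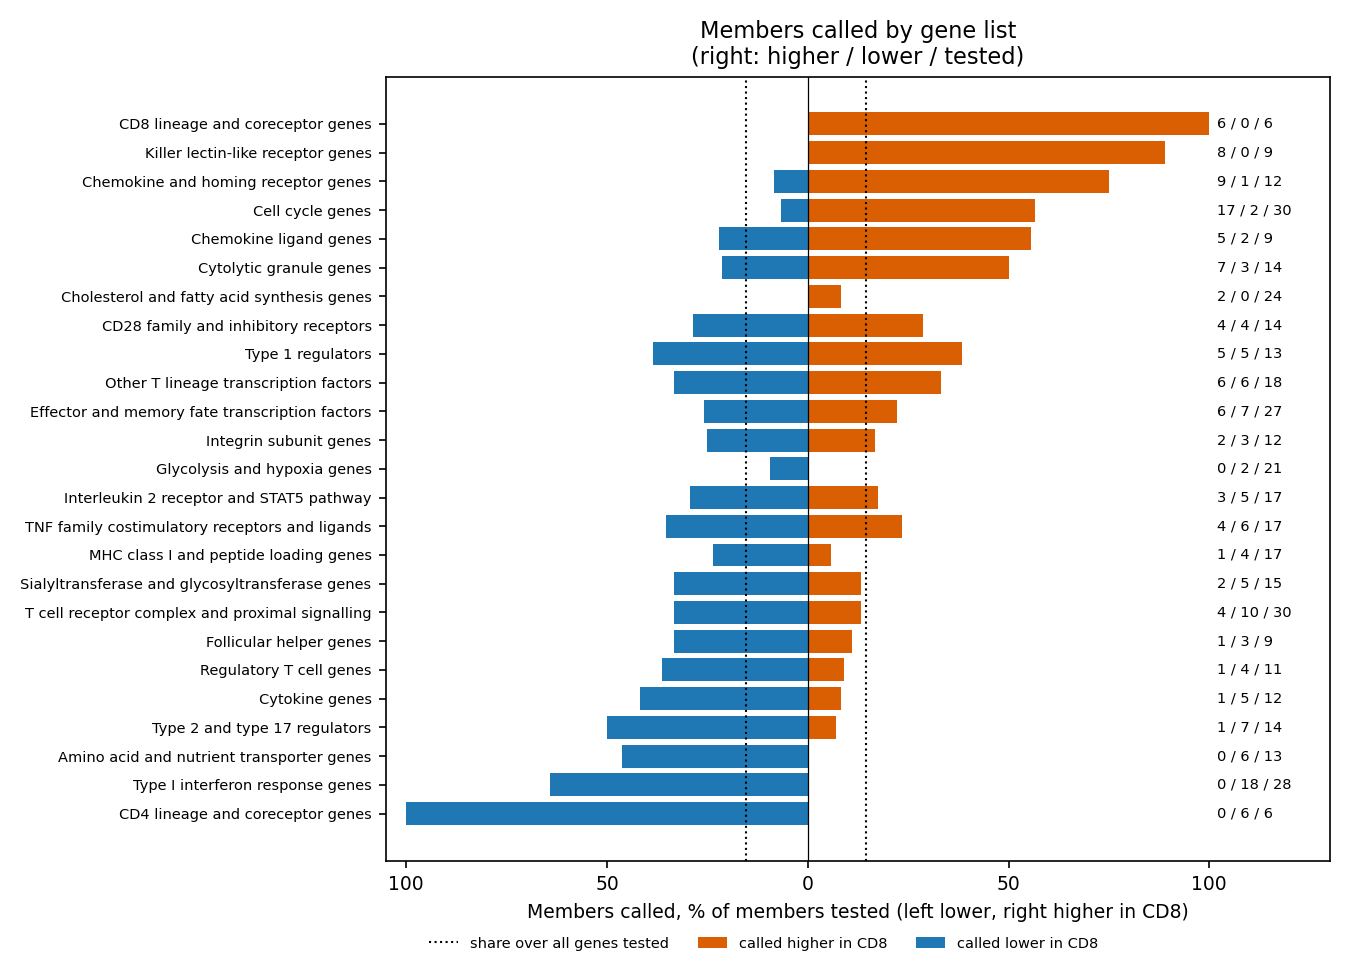
Share of tested members called higher (right, orange) or lower (left, blue) in CD8 for each of the 25 gene lists, with counts at the right and dotted lines at the shares over all genes tested (14.4% higher, 15.5% lower). CD8 lineage, killer receptor and chemokine receptor genes lie to the right, CD4 lineage and type I interferon response genes to the left. The lineage lists hold the coreceptors that name the cell types. Members kept by the count filter through 1 cell type alone, as in the killer receptor, chemokine receptor and chemokine ligand lists, were bound to differ.

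Several of the genes with the largest differences are on no list. Samd3 (chromosome 10, 26229707 to 26272172) stood at 0, 0.213, 0.0718 and 0.0907 CPM in CD4 cells and 13.7, 13.9, 13.1 and 13.1 CPM in CD8 (log2 difference 7.06, SE 0.32, edgeR adjusted p = 1.62e-06), with the 4 CD8 libraries close together. Calcb, a calcitonin gene-related peptide, had 3 counts in the CD4 libraries together and 353 in CD8, a ratio of 136.4 with a 95% counting interval of 46.31 to 664.8. Slc6a19, an amino acid carrier best known from gut and kidney, stood at 11.2, 6.61, 9.32 and 7.19 CPM in CD8 and 0.0454 to 0.135 CPM in CD4. Adgrg5 (6.68), Plac8 (6.12), Ctla2a (5.94) and Cables1 (5.90) were higher too. Samd3 (6 counts in CD4, 751 in CD8), Slc6a19 (5 and 481), Adgrg5 (4 and 407) and Ctla2a (5 and 296) passed the count filter through CD8. Like Calcb, they were bound to differ, and the size of their difference rests on few CD4 counts. The surface protein genes Ly6c2 and Ly6c1 went opposite ways, Ly6c2 from 1.89 ± 1.24 to 112 ± 33.4 CPM and Ly6c1 from 5.74 ± 1.59 to 0.277 ± 0.132 CPM (SD, n = 4 each). These are near-identical copies and the shared reads were not counted, so both levels are uncertain.

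On the CD4 side Dnah7a, an axonemal dynein heavy chain gene, stood at 29.1, 20.7, 52.2 and 56.9 CPM in CD4 cells and 0, 0.239, 0.698 and 0.691 CPM in CD8 (log2 difference -6.52, SE 0.55, edgeR adjusted p = 5.51e-05). Libraries 3 and 4 were higher than 1 and 2 in both cell types. Ccn1, a matrix-associated protein gene, stood at 51.1, 62.8, 17.1 and 32.1 and 1.75, 1.59, 1.84 and 2.56 CPM (log2 difference -4.38). Dhrs3, a retinaldehyde reductase gene, was steadier, 8.90 ± 1.68 against 0.481 ± 0.0588 CPM (SD, n = 4 each; log2 difference -4.18). Tal2 (-4.04), Chn2 (-4.03) and Smim10l2a (-4.29) completed the 15 lower genes of largest difference. Dnah7a (2702 counts in CD4, 24 in CD8), Dhrs3 (561 and 27), Chn2 (491 and 25) and Smim10l2a (376 and 17) passed the filter through CD4. They too were bound to differ.

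Genes next to the lineage genes were read from the annotation within 150 kb. At the Cd8 locus on chromosome 6, Smyd1, a muscle methyltransferase gene whose start lies beside that of Cd8b1 on the other strand, stood at 0.135, 0.0710, 0.287 and 0.136 CPM in CD4 cells and 5.64, 6.53, 6.09 and 6.22 CPM in CD8 (log2 difference 5.23, SE 0.27, edgeR adjusted p = 2.99e-06). The noncoding gene Gm44174, between Cd8b1 and Cd8a, had 0 counts in CD4 and 607 in CD8, and Gm44175 had 3 and 122. Both, and Smyd1 (10 and 342), passed the count filter through CD8 and were bound to differ. Krcc1 (-0.17), Gm44321 (-0.04), Rmnd5a (0.13) and Rnf103 (-0.18), whose starts lie farther out on either side, did not pass. The labels do not give the strand setting of the counting, so reads of overlapping or antisense genes cannot be told apart from those of their partners.

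**Figure D4:**
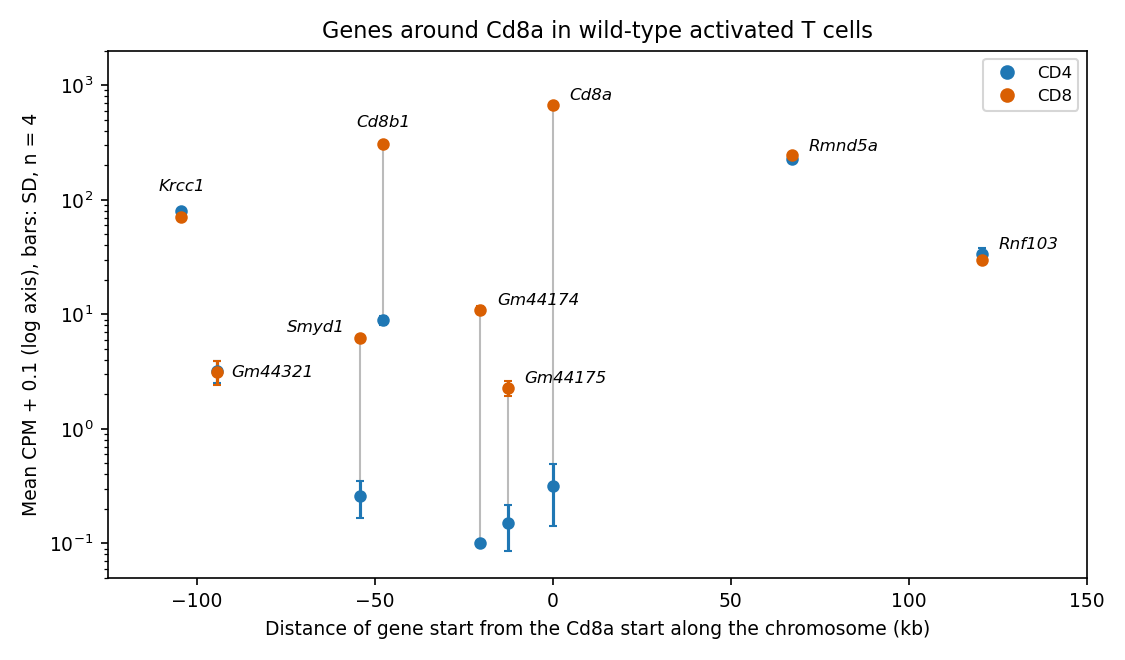
Mean CPM plus 0.1 on a log axis (bars: SD, n = 4) in CD4 (blue) and CD8 (orange) for tested genes around Cd8a, placed by the distance of their start from that of Cd8a in kb, with Smyd1 and Cd8b1, and Krcc1 and Gm44321, moved apart by a few kb to be seen. Smyd1, Cd8b1, Gm44174, Gm44175 and Cd8a were higher in CD8, and the 4 outer genes were not called. Smyd1, Gm44174, Gm44175 and Cd8a passed the count filter through CD8 alone and were bound to differ.

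Around Cd40lg, the noncoding gene Gm14718 stood at 16.6, 15.2, 12.2 and 14.02 CPM in CD4 cells and 0.305, 0.239, 0.190 and 0 CPM in CD8 (log2 difference -6.27), and Arhgef6 was lower (-0.52). Next to Cd4, Lag3, an inhibitory receptor related to CD4, did not pass (0.10); Usp5 was higher (0.32), Ptms (-0.60), Grcc10 (-0.91) and Eno2 (-1.16) were lower, and 11 neighbours in all did not pass. Beside Zbtb7b, Adam15 was lower (-2.31), as was Gm15417 (-3.82), which lies antisense; Trim46 (-0.74), Krtcap2 (-0.51) and Slc50a1 (-0.28) were lower too, and 7 neighbours did not pass. Near Ifng, the noncoding Ifngas1 had 1 count in CD4 and 60 in CD8. It passed the filter through CD8, as Gm14718 (938 and 10) and Gm15417 (152 and 9) did through CD4, so they were bound to differ. Beyond Il2, Gm12532 had 62 counts in CD4 and 0 in CD8 and was not tested, and 4932438A13Rik was lower (-0.28). Beside Prf1, Adamts14 was higher (2.40) and Eif4ebp2 did not pass (0.06). In the killer receptor cluster on chromosome 6, Klre1 (4.89) and Klri2 (3.29) were higher with Klrk1, and Gabarapl1, an autophagy gene at the edge of the cluster, was higher by 0.60.

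Of 21 Trbv segments, the variable segments of the receptor beta chain, 11 were higher and 2, Trbv2 and Trbv31, lower in CD8. The constant genes Trbc1 (138 ± 8.499 CPM in CD4, 173 ± 14.9 CPM in CD8) and Trbc2 (198 ± 25.5 and 291 ± 33.6 CPM, SD, n = 4 each), which are near-identical, were both higher. Of 46 Trav segments 10 were higher and 7 lower, and Trac did not pass (-0.04). The median log2 difference was -0.087 over Trav and 0.28 over Trbv segments. Over all genes tested, 14.4% were higher and 15.5% lower. Trgc2, a gamma chain constant gene, was higher by 3.24, with 0.0677, 0.213, 0.359 and 0.0454 CPM in CD4 cells and 0.763, 0.796, 3.55 and 0.968 CPM in CD8, highest in library 3. Trdc, the delta constant gene, was 0.718 to 1.06 CPM in CD4 cells and 1.45 to 1.83 CPM in CD8.

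The contrast was then read in libraries that the wild-type comparison had not used. These sets differed in sex makeup by Xist, though same-numbered CD4 and CD8 libraries of a genotype were alike. Xist was high in heterozygous libraries 1 and 2 (1210 to 1780 CPM) and in knockout library 2 (1480 CPM in CD4, 1910 CPM in CD8). The part of sex in the differences between sets was not tested. Among heterozygous libraries 4884 of 12374 genes (39.5%) were called, and among knockout libraries 1890 of 12333 (15.3%), or 3074 with the library number as a block. Of the 3714 genes called in wild type, 3685 were tested in heterozygotes; 3653 had the same sign and 2972 (80.7%) were called the same way. In knockouts 3677 were tested, 3632 had the same sign and 1650 (44.9%) were called the same way. No gene was called the opposite way in either. Of the 955 genes with at least a 2-fold difference, 873 of 930 tested were called the same way in heterozygotes and 734 of 922 in knockouts.

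Prf1 had a log2 difference of 6.70 in wild type, 5.45 in heterozygotes and 6.15 in knockouts, and Xcl1 of 7.74, 7.22 and 6.82. Il2 gave -4.53, -4.88 and -4.70, and St8sia6 -6.94, -6.82 and -6.63. Ifng was 7.07 in wild type, 5.67 in heterozygotes and 6.39 in knockouts. Ly6c1 ranged more, from -4.37 to -7.82, and Ccl22 from -4.81 to -2.43. Klrc2 was 4.90 in wild type, 1.60 in heterozygotes and 2.19 in knockouts, and Klrk1 was 5.49, 3.55 and 4.58. All 18 type I interferon response genes lower in wild type were also called lower in heterozygotes and 14 were in knockouts. Of the 17 cell cycle genes higher in wild type, 16 were called higher in heterozygotes and 3 in knockouts. Of the 6 amino acid transporter genes lower in wild type, all 6 were called lower in heterozygotes and 0 in knockouts.

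A difference of the contrast between genotypes was tested over all 24 libraries. It passed for 1 of 13288 genes (0.00753%) between knockout and wild type and for 1 (0.00753%) between heterozygote and wild type, with 228 and 538 genes at an unadjusted p under 0.05, and both tests share the wild-type libraries. That gene was the noncoding Gm38326, with a difference of -5.82 for knockouts and -5.92 for heterozygotes. Calls present in wild type and missing in knockouts, such as those of the transporters, are therefore not shown to differ between genotypes.

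**Figure D5:**
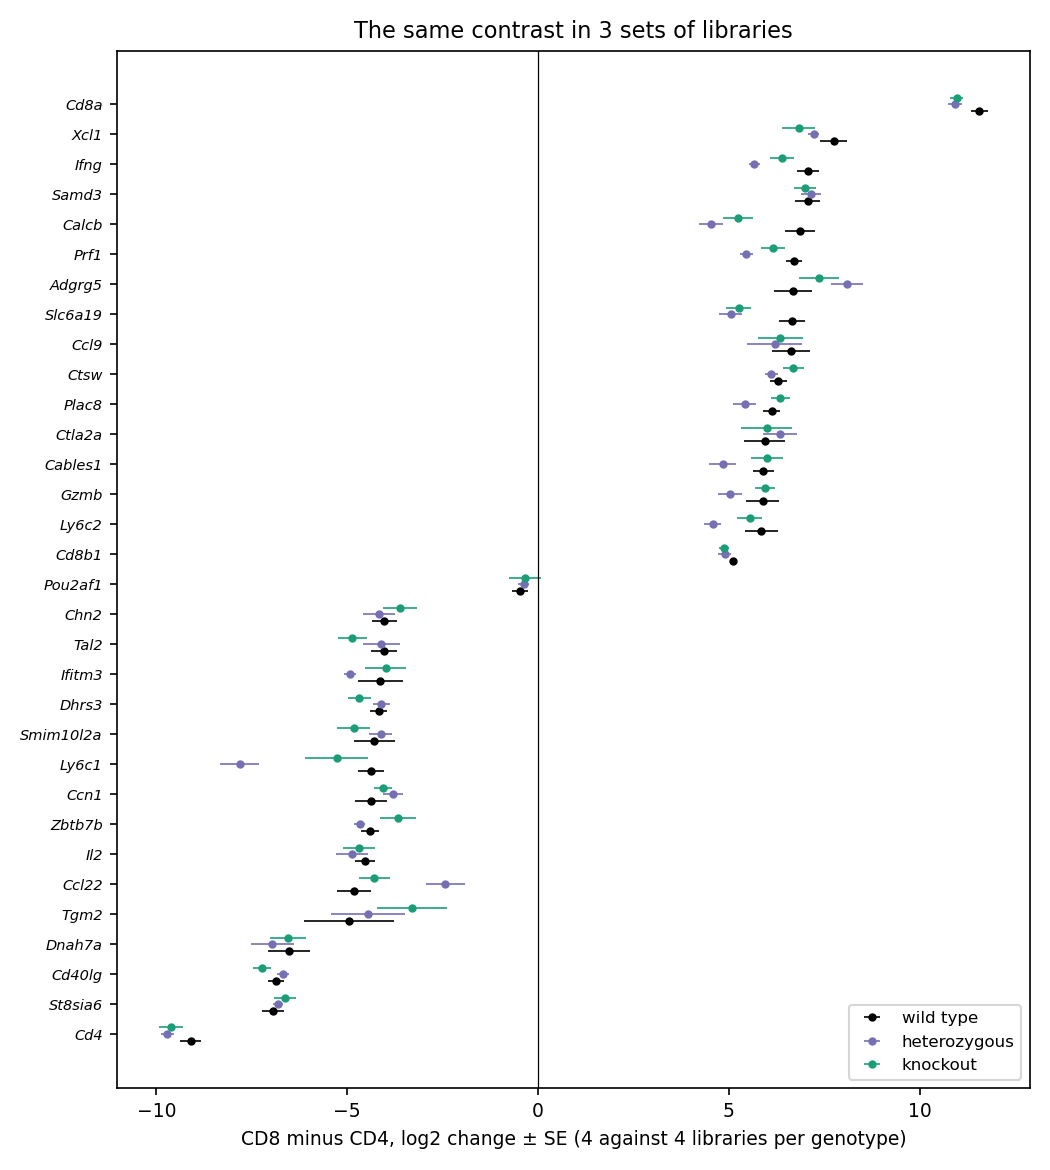
CD8 minus CD4 on the log2 scale with SE (x axis) for 32 named genes in wild-type (black), heterozygous (purple) and knockout (green) libraries, each from 4 against 4 libraries. Points of the 3 sets lie on the same side of 0 for every gene shown, with Pou2af1 close to 0, and Ly6c1, Ccl22 and Calcb are among those that spread most.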

How the data were processed

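RNA counts per gene were compared in 8 of 24 libraries. The authors deposited the raw counts of all 24 libraries in 1 table; per the submitters' processing notes, Trimmomatic 0.35, STAR 2.7.1a, DESeq2 1.26.0 and the mouse build GRCm38 were used. RNA was captured by poly(A) selection per the labels' protocols. Neither the strand setting nor the annotation release is given in the sources used here. Summary rows that name no gene (32.6 to 35.0% of each library's column, of which reads mapping to several places were 17.7 to 18.4% of the column) were dropped, so near-identical genes lose shared reads.

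Genes passing edgeR's filterByExpr (4.0.16, in R 4.3.3, minimum count 10) were scaled by TMM (factors 0.983 to 1.01) and tested with the quasi-likelihood test without a block, with Benjamini-Hochberg adjustment and a threshold of 0.05. The common biological coefficient of variation was 0.157. Heterozygous and knockout libraries were fitted alike, and all 24 together for the difference between genotypes. CPM are gene counts scaled to library size with the TMM factors; 3 counts, the floor of counting, came to 0.136 to 0.239 CPM, and intervals cover counting error only. Libraries of a group differed by more than sampling noise.

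The replicate numbers come from the sample titles. Deviations from the group mean in same-numbered CD4 and CD8 libraries correlated at 0.384, 0.329, 0.407 and 0.401 for numbers 1 to 4. CD4 library 1 and CD8 library 2 correlated at 0.355 and CD4 library 2 and CD8 library 1 at 0.393, so much of the likeness was shared by numbers 1 and 2. Every same-numbered pair was above 0.1, and on this ground the fit with the number as a block was run as an alternative. Pairs of different numbers also passed 0.1, CD4 library 3 and CD8 library 4 at 0.284 among them. The cut therefore cannot show that the numbers pair the samples.

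The comparison, its members and the 25 gene lists were chosen with earlier results of these data known. Genes named by rule were the labelled markers with Pou2af1, up to 15 called genes each way with the largest change, a mean of at least 5 CPM in the higher group, no overlap and 1 direction in every same-numbered pair (leaving out Gm and Rik genes and receptor segments), and up to 4 called members of lowest p per list. Other list members, neighbours and segments were named after their values were seen. Alternatives were DESeq2 1.42.0, median-of-ratios factors, no filter, a filter at 1 CPM in 4 libraries, the block, all 24 libraries, libraries numbered 1 and 2 or 3 and 4 alone, that split as a covariate, and leaving out each library. Leaving out both libraries numbered 3, and list counts in subsets, were chosen after seeing the data.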

Additional observations from a re-analysis of the deposited data

Results flagged for a closer look

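In 10 of 228 groups of 4 libraries (4.39%, about what chance alone flags with this test), 1 library of a named gene stood apart from the others by Dixon's criterion. Library 3 stood apart most often. Gata3 was 8.12 CPM in CD8 library 3 against 11.8 to 12.6 in the other CD8 libraries, and Klre1 there was 4.69 CPM against 3.66 to 3.74. Cd274 was 64.5 CPM in CD8 library 3 against 73.6 to 75.0, and 177.5 CPM in CD4 library 1 against 159 to 160. In CD4 library 3, Cxcr5 was 7.69 CPM against 2.37 to 2.86 and St3gal6 was 7.47 CPM against 3.38 to 3.99. Vsir was 74.6 CPM in CD8 library 2 against 67.8 to 68.4. In CD8 library 4, Nr4a3 was 607 CPM against 534 to 542 and St3gal1 was 29.04 CPM against 38.0 to 38.7. Ccr9 in CD4 library 1 was 0.0677 CPM, which is 1 count, against 0 in the others.

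The CD8 against CD4 contrast differed between genotypes for Gm38326, a noncoding gene on chromosome 3 (60788361 to 60794730). In wild type its mean was 0.207 CPM in CD4 cells and 0.212 CPM in CD8 cells. In heterozygotes its mean was 8.20 CPM in CD4 cells and 0.125 CPM in CD8 cells, and in knockouts at 7.04 and 0.115 CPM. The contrast differed from wild type by -5.92 in heterozygotes and -5.82 in knockouts on the log2 scale, by edgeR's test over all 24 libraries.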

How the results depend on the processing

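The count of 3714 called genes stayed within 1.5 times under DESeq2 (4042), median-of-ratios factors (3711), no filter (3555), the stricter filter (3676), all 24 libraries (4149) and the replicate block (4281, of which 3550 were also called without it). Libraries numbered 3 and 4 alone gave 2109 calls, 881 higher and 1228 lower, and libraries numbered 1 and 2 alone gave 5426. Spread within a cell type also differed between these sets. The chi-square of the counts per degree of freedom was 3.76 in CD4 and 3.29 in CD8 between libraries 1 and 2. Between libraries 3 and 4, which differed in sex-linked transcripts, it was 10.1 and 13.2. The cause of the difference in calls was not tested. In libraries numbered 3 and 4 alone higher calls were 41.8% of all calls against 48.2%. Leaving out 1 library gave 2616 to 3845 calls, 1220 to 1824 higher and 1396 to 2021 lower, and 881 to 1050 of at least 2-fold. Heterozygous calls ran from 3981 to 4873 and knockout calls from 1340 to 2444 when 1 library was left out; the knockout count was 3074 with the replicate block. Beyond the genes and list counts given with their blocked values, the block changed no other call among the genes named by rule. Vegfa was lost without CD8 library 1 or 3 or both libraries numbered 3, Acaca in 5 fits that left out 1 library, Itgal without CD8 library 2 and with all 24 libraries, and H2-Q6 with all 24. Csf1, Cxcr5, Itga4, Itgal, Ccnb2, Cdc20, Vegfa, Slc7a11, Slc43a3 and Slc1a5 did not pass in libraries numbered 3 and 4 alone; the cause was not tested. No gene named by rule changed direction in any alternative run; Hmgcs1, outside the rule, went opposite ways in libraries 1 and 2 and in 3 and 4. Genes near the floor of 3 counts cannot be compared by fold.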
